A study of Saccharomyces cerevisiae with 24 samples.

Results

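The genes of a-factor, its export, the α-factor receptor and the agglutinins of a cells, 8 of the 7127 features in the count table of a budding yeast study, were followed through all 8 groups. They are MFA1 (YDR461W) and MFA2 (YNL145W), STE2 (YFL026W), STE6 (YKL209C), BAR1 (YIL015W), AGA1 (YNR044W), AGA2 (YGL032C) and FUS1 (YCL027W), found by their systematic names. They were selected on known results of these data, the lower counts of most of them in mutant than in NPL3 cells at 30 °C, so the mutant values at 30 °C are a description with no test. All 8 were among the 6518 features that passed the filter on low counts.

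The study compared mRNA libraries made from total RNA of Saccharomyces cerevisiae W303 cells with wild-type NPL3 and with 3 mutant alleles, named by their amino acid changes. Npl3 is an SR-like protein that binds nascent mRNA. The allele npl3-F162Y lies in the first RNA recognition motif, npl3-P196D-A197D in the linker between the motifs, and npl3-F245I in the second motif. Each strain was grown in YPD at 30 °C, or moved to 37 °C for 1 hour, which gave 8 groups of 3 libraries. Every group shared the npl3-shuffle background with the tested allele on the plasmid pRS315, and the same MATa and GAL+ genotype with ade2-1, can1-100, trp1-1, ura3-1, his3-11,15 and a mutant leu2 allele. In a shuffle strain the plasmid is the source of the protein, so NPL3 was plasmid-borne in the control too. Nothing in the labels tells whether a group's 3 libraries were grown as separate cultures. Each p-value hence reflects the spread of these libraries, which may be technical.

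Haploid yeast cells mate as a or α cells. An a cell secretes a-factor, senses α-factor from its partner through a receptor coupled to a G protein and a kinase cascade, and adheres to the partner through agglutinins. In a cells the transcription factor Mcm1 activates the a-specific genes, and in α cells the α2 protein binds beside Mcm1 and represses them. Of the 8 genes, MFA1, MFA2, STE2, STE6, BAR1 and AGA2 are a-specific, whereas AGA1 and FUS1 are also expressed in α cells and are induced by pheromone through Ste12.

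The 6 a-specific genes share a palindromic Mcm1 box, which their selection did not use. It is shown because the box with its flanks is the known operator of a-specific genes. The box was searched as CC and GG separated by 6 bases of any kind. The 400 bases before each start codon were searched in the R64 reference genome, which is of strain S288C, whereas the cells were W303. In the following stretches, written 5′ to 3′ on the strand of the gene, capitals mark the box and every CATG within 14 bases of it.
MFA1, chrIV:1384938-1384975, plus strand: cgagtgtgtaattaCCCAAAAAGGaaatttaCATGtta
MFA2, chrXIV:352159-352196, plus strand: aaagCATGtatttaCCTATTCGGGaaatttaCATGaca
STE2, chrVI:82348-82385, plus strand: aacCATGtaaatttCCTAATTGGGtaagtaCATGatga
STE6, chrXI:46474-46511, minus strand: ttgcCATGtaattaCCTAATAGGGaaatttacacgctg
BAR1, chrIX:322074-322111, plus strand: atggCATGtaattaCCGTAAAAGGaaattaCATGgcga
AGA2, chrVII:437098-437135, minus strand: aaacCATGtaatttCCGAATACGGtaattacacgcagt
Both motifs are palindromes, so a match on one strand is a match on the other. The box was present in 39.7% of the 6001 genes searched, the box with CATG within 14 bases in 2.73% of them, and the box with CATG on both sides in 0.0833%, or 5 genes, of which MFA2, STE2 and BAR1 are 3.

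AGA1 and FUS1 had no Mcm1 box in the window. The pheromone response element, to which Ste12 binds, was searched as TGAAACA on both strands. It is printed in capitals for these genes.
AGA1, chrXIV:703491-703509, plus strand: attttcTGAAACAatatta
FUS1, chrIII:71610-71655, plus strand: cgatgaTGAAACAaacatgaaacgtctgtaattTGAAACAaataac
All 8 genes held at least 1 TGAAACA match, against 9.87% of the 6001 genes, and 5 of the 8 held 2 or more, against 0.65%. No TGAAACA match overlapped a Mcm1 box in these windows. A match is a description of the letters and not a bound site.

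**Figure D1:**
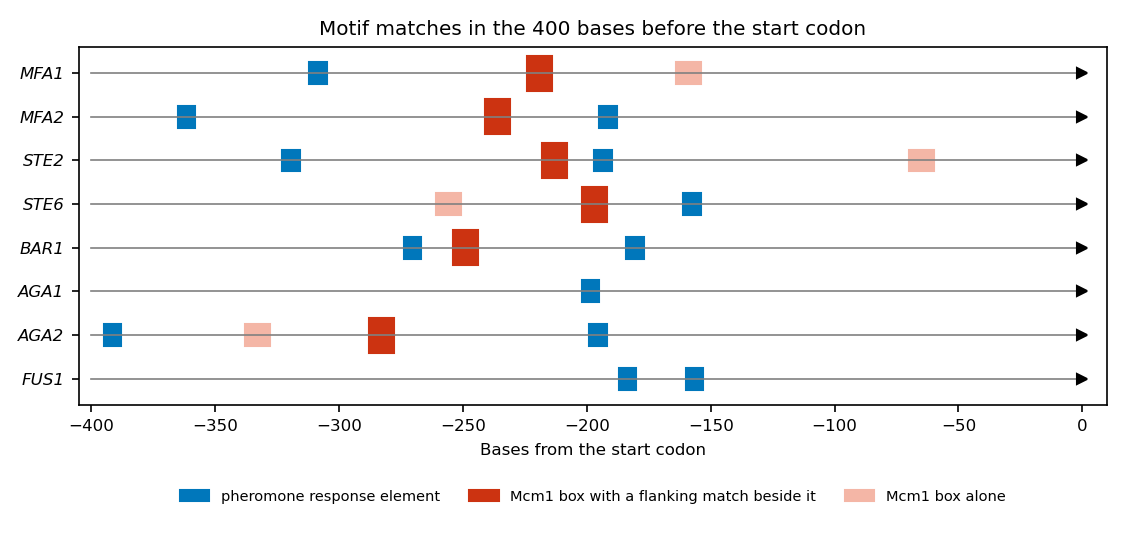
Motif matches in the 400 bases before the start codon of each gene (horizontal axis, bases from the start codon, gene read from left to right). Tall red boxes are Mcm1 boxes with CATG within 14 bases, pale boxes are Mcm1 boxes without it, and blue boxes are TGAAACA matches. The 6 a-specific genes each have 1 tall red box, between bases -288 and -193, and AGA1 and FUS1 have none.

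The pheromone genes MFA1 and MFA2 encode precursors of nearly the same peptide. Their coding sequences are shown because their transcripts changed differently. Capitals mark the longest run of identical bases, which is 11 bases long.
MFA1, chrIV:1385176-1385286, plus strand: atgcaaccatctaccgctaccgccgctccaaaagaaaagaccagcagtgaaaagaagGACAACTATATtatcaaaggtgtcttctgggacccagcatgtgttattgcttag
MFA2, chrXIV:352414-352530, plus strand: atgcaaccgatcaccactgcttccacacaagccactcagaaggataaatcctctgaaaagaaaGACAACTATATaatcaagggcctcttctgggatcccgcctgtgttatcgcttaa
The sequences, of 111 and 117 bases, were 71.67% identical over 120 aligned columns. None of the 8 genes had another copy in the reference of at least 95% identity over 100 bases, and none overlapped another annotated gene.

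Libraries held 15.8 M to 34.7 M counts in genes (M, 1e6 counts), with a median of 24.9 M. Mean NPL3 transcript levels were 192 to 342 CPM over the groups, and gene counts cannot show the point mutations. For 4 libraries, replicate 2 of each strain at 37 °C, the titles are numbered in another series than for the remaining 20. The labels do not say what the number stands for. In a fit with that series as a term, MFA1 was lower by a log2 value of -0.31 in those libraries, MFA2 by -0.32 and AGA2 by -0.18, with edgeR adjusted p of 1.75e-06, 7.66e-07 and 0.000313. These are the shortest of the 8 genes, and the term passed for 22.2% of all features. The other 5 genes had adjusted p of 0.499 to 0.964. The median of the term over genes of up to 300 coding bases was -0.15, and over genes of more than 2400 bases it was 0.06. Most printed log2 differences of the 3 short genes that use 37 °C libraries are therefore given with and without those 4 libraries.

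Transcript levels of the 8 genes spanned a wide range, and NPL3 cells at 30 °C held the highest group mean for 6 of them. Scaled by coding length, MFA2 was the most abundant in those cells, at 6312 ± 238 CPM per kilobase (SD, n = 3), followed by MFA1 at 1308 ± 19.5, STE2 at 671 ± 12.9, AGA2 at 405 ± 7.27, BAR1 at 242 ± 6.79, STE6 at 109 ± 1.66, AGA1 at 35.4 ± 0.416 and FUS1 at 22.8 ± 0.319. No neighbours in that order overlapped. Coding length is not transcript length, so the scaled values are not levels per length of transcript. The order depends on this scaling, since the coding sequences of MFA1 and MFA2 have only 111 and 117 bases. Without it STE2 stood above MFA2, with highest libraries of 889 and 771 CPM. BAR1 then stood above MFA1, at 435 and 147 CPM. CPM (counts per 1e6) uses library sizes multiplied by TMM factors. In NPL3 cells at 37 °C the scaled order was the same, and STE2 at 255 ± 14.4 and AGA2 at 229 ± 17.6 CPM per kilobase lay within their spread of each other. In npl3-P196D-A197D cells at 37 °C STE2 at 251 ± 4.61 and AGA2 at 251 ± 18.8 overlapped, as did BAR1 at 64.8 ± 2.08 and STE6 at 64.8 ± 1.63.

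**Figure D2:**
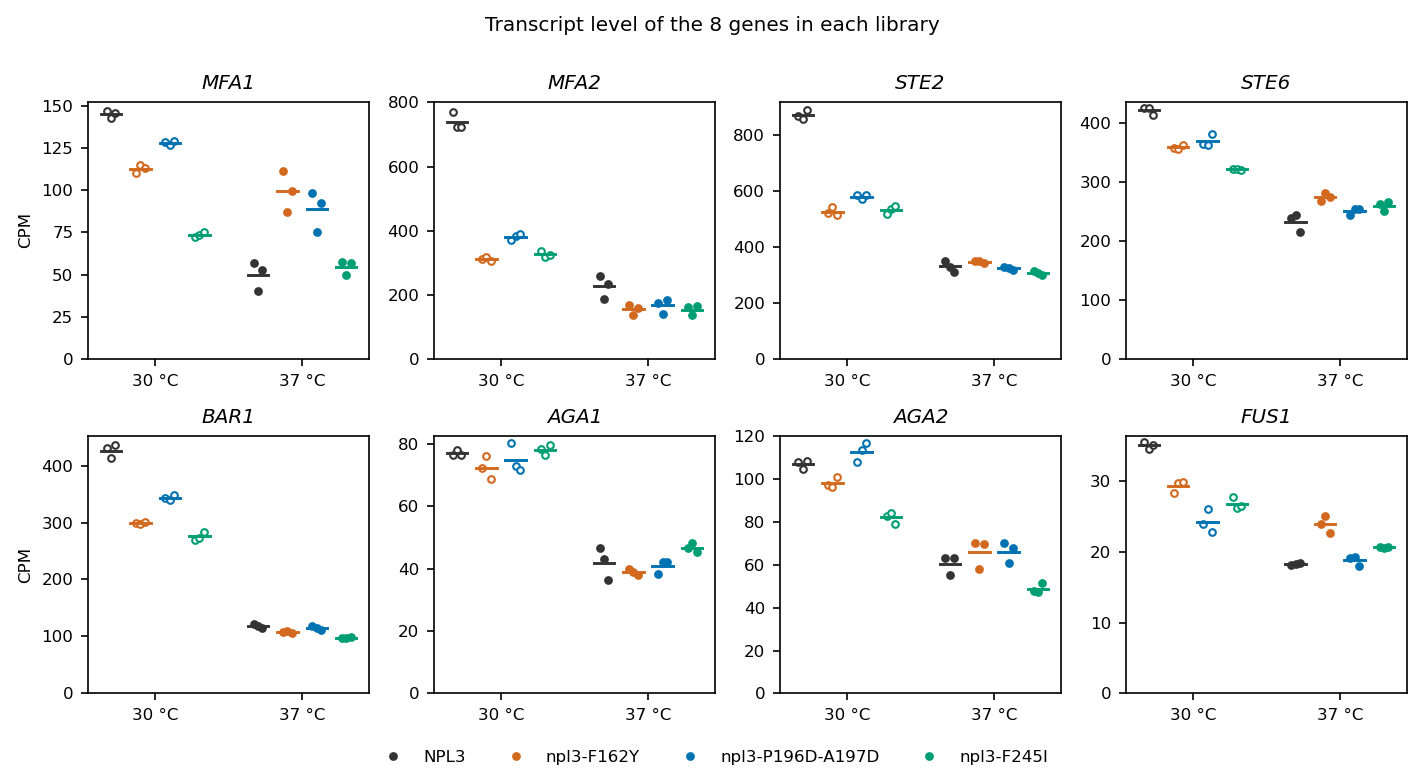
Transcript level of each gene in CPM (vertical axis, from 0) in every library, by strain (colour) and temperature (open points 30 °C, filled points 37 °C). Points are libraries, horizontal bars are means of 3. The 8 genes are lower at 37 °C than at 30 °C in NPL3 cells, and MFA1 at 37 °C is higher in npl3-F162Y and npl3-P196D-A197D cells than in NPL3 cells.

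The first comparison asked how the mutants differ from NPL3 at 30 °C. It is the comparison with which the genes were proposed, so its values are a description. This holds for the overlap of libraries too, and no share of all features without overlap is given. In npl3-F162Y cells 6 of the 8 genes were lower, where 38.6% of all features were called lower, in npl3-P196D-A197D cells 5 against 31.7%, and in npl3-F245I cells 7 against 33.3%. None was called higher, where 29.8, 24.1 and 24.5% of features were. In either direction 68.4, 55.7 and 57.7% of features were called. Whole-culture RNA cannot tell fewer cells with a transcript from less transcript in each cell.

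The pheromone genes differed in size. MFA2 stood at 771, 723 and 722 CPM in NPL3 cells, at 313, 318 and 306 in npl3-F162Y, at 372, 383 and 391 in npl3-P196D-A197D and at 337, 320 and 324 in npl3-F245I cells. No mutant library reached the NPL3 libraries, and the 3 means were 0.422, 0.517 and 0.442 of the NPL3 mean. MFA1 stood at 147, 143 and 146 CPM in NPL3 cells, at 110, 115 and 113 in npl3-F162Y, at 129, 127 and 129 in npl3-P196D-A197D and at 72.5, 73.6 and 75.2 in npl3-F245I cells. It was lowest in npl3-F245I cells, at 0.508 of the NPL3 mean, and its npl3-P196D-A197D value was not called. That value was called lower with the number series as a term, without the 4 libraries and with only the compared groups fitted.

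The receptor gene STE2, whose product binds α-factor, stood at 865, 856 and 889 CPM in NPL3 cells, at 522, 542 and 515 in npl3-F162Y, at 585, 570 and 584 in npl3-P196D-A197D and at 518, 535 and 547 in npl3-F245I cells. Its mutant means were 0.605, 0.666 and 0.613 of the NPL3 mean. STE6, the transporter that exports a-factor, ranged from 414 to 426 CPM in NPL3 cells and from 321 to 381 in the 9 mutant libraries. BAR1, the secreted protease that cuts α-factor, ranged from 413 to 435 CPM in NPL3 cells and from 269 to 349 in the mutant libraries. The levels of these 3 genes are a description, since the genes were proposed with this comparison.

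The agglutinin genes differed less from NPL3. AGA1, which encodes the anchor subunit of a-agglutinin, ranged from 76.5 to 78.2 CPM in NPL3 cells and from 68.8 to 80.5 in the mutant libraries, and it was not called in any mutant. AGA2, the adhesion subunit, stood at 108, 105 and 108 CPM in NPL3 cells and was called lower in npl3-F245I cells, at 82.8, 84.3 and 79.0. It was also called lower in npl3-F162Y cells, at 97.1, 96.4 and 101 CPM, with the number series as a term or without the 4 libraries, and higher in npl3-P196D-A197D cells with only the compared groups fitted. FUS1, a membrane protein of cell fusion, stood at 35.5, 34.5 and 35.1 CPM in NPL3 cells and at 28.4, 29.7 and 29.9 in npl3-F162Y, at 24.0, 26.0 and 22.8 in npl3-P196D-A197D and at 27.8, 26.1 and 26.5 in npl3-F245I cells.

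At 37 °C, which the choice of genes did not use, the mutants differed from NPL3 in both directions. In npl3-F162Y cells 3 of the 8 genes were higher and 2 lower, where 28% and 30.8% of all features were. In npl3-P196D-A197D cells 2 were higher and 1 lower, against 21.3% and 22.4%, and in npl3-F245I cells 3 were higher and 4 lower, against 24% and 26.5%. In either direction 5, 3 and 7 genes were called, where 58.8, 43.7 and 50.6% of features were, so that the share of the genes lay near the background in the first pair of mutants and above it in npl3-F245I cells. The 3 comparisons share the NPL3 libraries. With only the compared groups in the fit, 1 gene rather than 3 was called in npl3-P196D-A197D cells, where MFA2 and STE6 lost their calls, and 3 rather than 7 in npl3-F245I cells, where STE2, STE6, AGA1 and FUS1 did. The share above background in npl3-F245I cells thus rests on the fit of all 24 libraries.

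The a-factor genes went opposite ways at 37 °C in npl3-F162Y and npl3-P196D-A197D cells. MFA1 stood at 56.7, 40.6 and 52.5 CPM in NPL3 cells, at 111, 87.2 and 99.8 in npl3-F162Y, at 98.2, 75.4 and 92.4 in npl3-P196D-A197D and at 57.2, 49.6 and 56.9 in npl3-F245I cells. No library of the first pair of mutants overlapped NPL3, and the npl3-F245I libraries did. MFA1 was 1.99-fold higher in npl3-F162Y (log2 1.00, 95% interval 0.78 to 1.21, edgeR adjusted p = 5.81e-08) and 1.77-fold higher in npl3-P196D-A197D (log2 0.83, 0.61 to 1.04, edgeR adjusted p = 2.09e-06). In npl3-F245I cells its difference was 0.13 (-0.09 to 0.35, edgeR adjusted p = 0.323). Leaving out replicate 2 of each strain, the 4 libraries numbered apart, gave 0.95, 0.80 and 0.07 with the same calls. With the number series as a term, MFA1 in npl3-F245I cells was called higher (log2 0.14, edgeR adjusted p = 0.0134).

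MFA2 stood at 260, 186 and 235 CPM in NPL3 cells at 37 °C, at 168, 138 and 160 in npl3-F162Y, at 176, 142 and 185 in npl3-P196D-A197D and at 161, 137 and 166 in npl3-F245I cells. Every mutant library lay below the lowest NPL3 library. MFA2 was lower by log2 values of -0.55, -0.44 and -0.56, with edgeR adjusted p of 0.000144, 0.00191 and 0.000151. Without the 4 libraries these were -0.59, -0.46 and -0.60.

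MFA1 therefore made up a larger share of the a-factor transcript in the mutants. The share of MFA1 in the MFA1 and MFA2 counts was 16.0, 16.5 and 16.8% in the NPL3 libraries at 30 °C, 26.0, 26.6 and 27.0% for npl3-F162Y, 25.7, 24.8 and 24.9% for npl3-P196D-A197D and 17.7, 18.7 and 18.8% for npl3-F245I cells. At 37 °C it was 17.9, 17.9 and 18.3% for NPL3, 39.8, 38.8 and 38.4% for npl3-F162Y, 35.8, 34.6 and 33.4% for npl3-P196D-A197D and 26.2, 26.6 and 25.6% for npl3-F245I cells. Mutant and NPL3 libraries did not overlap at either temperature. The share was looked at after the values were seen and was not tested. Replicate 2 at 37 °C did not stand apart in it. The summed level of both genes was 884 CPM in NPL3 cells at 30 °C and 425, 510 and 400 CPM in the mutants in the order above. At 37 °C it was 277 ± 46.0 CPM in NPL3 cells and 255, 256 and 209 CPM in the mutants.

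**Figure D3:**
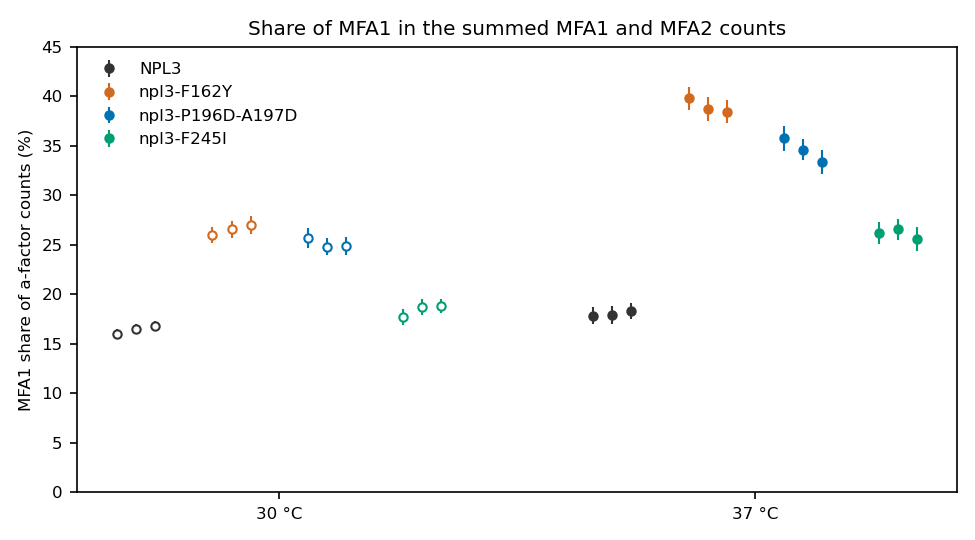
Share of MFA1 in the summed MFA1 and MFA2 counts (vertical axis, percent) in each library by strain (colour) and temperature (open 30 °C, filled 37 °C), with exact 95% binomial intervals, which cover counting error only. Shares run from 16.0 to 16.8% in NPL3 cells at 30 °C and from 38.4 to 39.8% in npl3-F162Y cells at 37 °C.

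Among the remaining genes at 37 °C, the receptor gene STE2 stood at 350, 330 and 313 CPM in NPL3 cells and at 299 to 351 in the mutant libraries. It was lower only in npl3-F245I cells (log2 -0.11, edgeR adjusted p = 0.0212), where the libraries overlapped NPL3, and this call was lost without the 4 libraries (edgeR adjusted p = 0.0635), without replicate 1 of NPL3 (0.148) and without replicate 3 of the mutant (0.0901). STE6 stood at 239, 244 and 216 CPM in NPL3 cells and was higher in all 3 mutants, by log2 values of 0.24, 0.11 and 0.16, with edgeR adjusted p of 2.26e-05, 0.0348 and 0.00251. The npl3-P196D-A197D libraries overlapped NPL3, and that call was lost without 1 of 3 libraries: replicate 3 of NPL3, or replicate 2 or 3 of the mutant, with edgeR adjusted p of 0.181, 0.101 and 0.103. BAR1 stood at 122, 118 and 114 CPM in NPL3 cells, and was lower in npl3-F162Y (log2 -0.14, edgeR adjusted p = 0.00263) and npl3-F245I (log2 -0.27, edgeR adjusted p = 1.15e-06). The npl3-F162Y call was lost with only the compared groups fitted (edgeR adjusted p = 0.0738).

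AGA1 ranged from 36.3 to 46.6 CPM in NPL3 cells at 37 °C and was called higher in npl3-F245I cells, at 45.2 to 48.3 CPM (log2 0.16, edgeR adjusted p = 0.0431). The libraries overlapped, and the call was lost without the 4 libraries (edgeR adjusted p = 0.139) and without replicate 3 of NPL3 (0.232), replicate 1 of the mutant (0.0818) or its replicate 2 (0.141). AGA2 stood at 62.9, 55.0 and 63.2 CPM in NPL3 cells and was lower in npl3-F245I cells, at 47.6, 47.1 and 51.3 (log2 -0.31, edgeR adjusted p = 0.000417). Without the 4 libraries that value was -0.35, and AGA2 was also called higher in npl3-F162Y (log2 0.15, edgeR adjusted p = 0.0146) and npl3-P196D-A197D (log2 0.13, edgeR adjusted p = 0.0453). With all libraries AGA2 was not called in these mutants, at 0.12 (edgeR adjusted p = 0.110) and 0.13 (edgeR adjusted p = 0.122). FUS1 stood at 18.1, 18.3 and 18.4 CPM in NPL3 cells and at 24.0, 25.1 and 22.6 in npl3-F162Y, with no overlap (log2 0.39, edgeR adjusted p = 1.49e-06). It was also higher in npl3-F245I cells (log2 0.18, edgeR adjusted p = 0.00921).

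**Figure D4:**
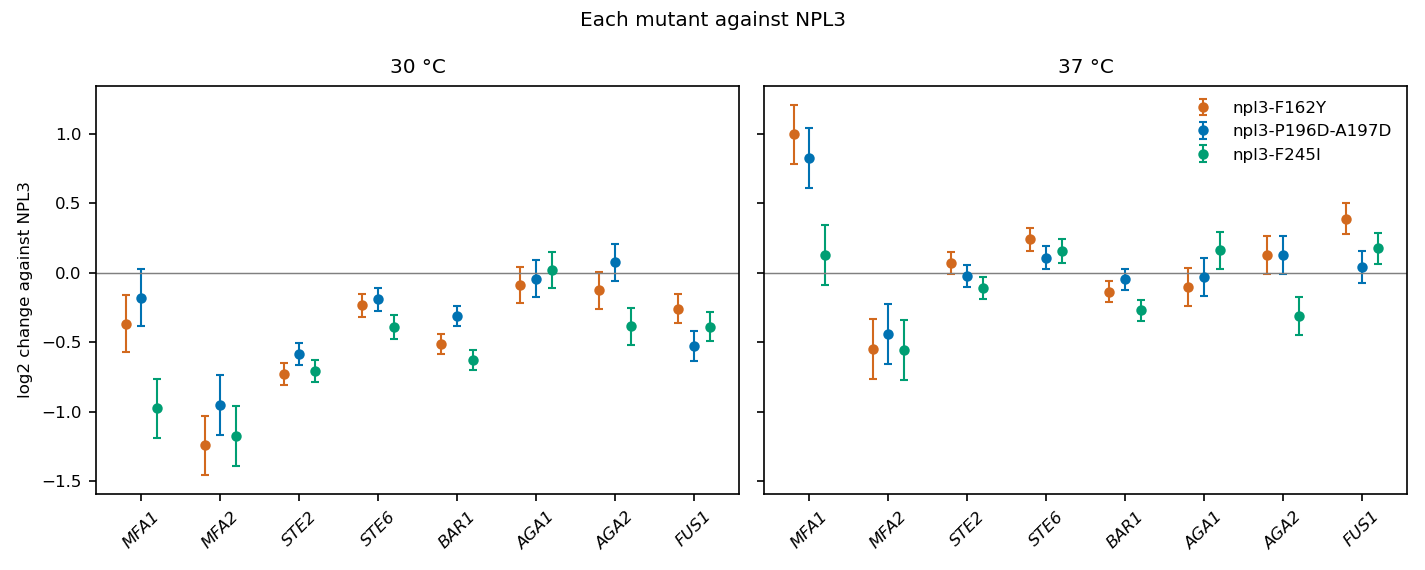
Log2 change of each gene against NPL3 (vertical axis) in each mutant (colour) at 30 °C (left) and 37 °C (right), with 95% intervals of the edgeR fit. MFA1 lies below 0 at 30 °C in all 3 mutants and at 1.00 in npl3-F162Y cells at 37 °C, whereas MFA2 is below 0 at both temperatures.

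With the shift to 37 °C most genes of the set fell in every strain. In NPL3 cells all 8 fell, where 32.9% of all features did, with a median log2 change of -1.17 against 0.01 over all features. In npl3-F162Y cells 7 fell, against 27%, and in npl3-P196D-A197D and npl3-F245I cells all 8 fell, against 28.5% and 30.8%. None rose in any strain, where 34.1, 34.4, 33.4 and 37.8% of features did, and 67, 61.3, 61.9 and 68.6% changed either way. The shift uses the 30 °C libraries that also entered the selection of the genes.

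BAR1 fell by the most of the 8 genes in each strain. In NPL3 cells it went from 431, 413 and 435 CPM to 122, 118 and 114 (log2 -1.85, 95% interval -1.93 to -1.78), and in the mutants its log2 change was -1.47 in npl3-F162Y, -1.59 in npl3-P196D-A197D and -1.49 in npl3-F245I cells. In all 4 strains no library at 37 °C overlapped one at 30 °C for BAR1 (edgeR adjusted p of 1.53e-21, 7.07e-20, 1.89e-20 and 4.41e-20). MFA2 followed in NPL3 cells with a log2 change of -1.70, then MFA1 with -1.54 and STE2 with -1.40. FUS1, AGA1, STE6 and AGA2 changed by -0.94, -0.88, -0.86 and -0.83. Without the 4 libraries MFA2 changed by -1.58, MFA1 by -1.41 and AGA2 by -0.76. The 95% intervals of neighbours in this order overlapped, except between STE2 and FUS1.

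MFA1 in npl3-F162Y cells was not called in the shift. It stood at 110, 115 and 113 CPM at 30 °C and at 111, 87.2 and 99.8 at 37 °C, with overlapping libraries (log2 -0.18, 95% interval -0.39 to 0.03, edgeR adjusted p = 0.124). With the replicate number as a block the value was -0.19 with edgeR adjusted p = 0.0424, with only the compared groups fitted it was -0.20 with 0.0402, and DESeq2 gave -0.21 with 0.0483. Leaving out each library gave -0.27 to -0.093, with edgeR adjusted p from 0.0341 without replicate 1 at 37 °C to 0.460 without replicate 2 at 37 °C. Without the 4 libraries it was -0.093 with edgeR adjusted p = 0.0872. In npl3-P196D-A197D cells MFA1 changed by a log2 value of -0.54 (edgeR adjusted p = 0.000102) and in npl3-F245I cells by -0.44 (edgeR adjusted p = 0.000824). These were -0.43 and -0.37 without the 4 libraries, with the same calls.

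**Figure D5:**
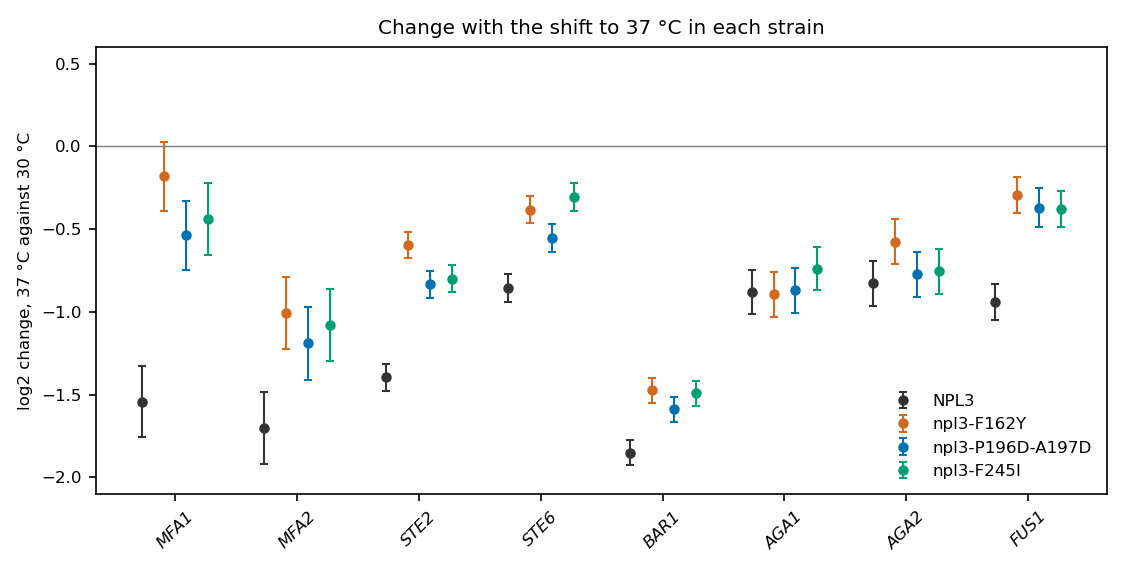
Log2 change from 30 °C to 37 °C of each gene (vertical axis) in each strain (colour), with 95% intervals of the edgeR fit. All points lie below 0, from -1.85 for BAR1 in NPL3 cells to -0.18 for MFA1 in npl3-F162Y cells, whose interval reaches 0.03.

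The difference between the shift responses was fitted as an interaction. It contains the 30 °C difference with which the genes were proposed, so its values are given as a description. For MFA1, MFA2, STE2, STE6, BAR1 and FUS1 the change was called higher, that is less negative, in each mutant than in NPL3 cells. These are 6 of 8 genes, where 11.8, 5.57 and 16.5% of features were called higher for npl3-F162Y, npl3-P196D-A197D and npl3-F245I cells, 8.68, 5.08 and 12.4% lower, and 20.5, 10.6 and 28.9% either way. For MFA1 the difference of the log2 changes was 1.36 in npl3-F162Y (95% interval 1.07 to 1.66), 1.00 in npl3-P196D-A197D and 1.10 in npl3-F245I cells, and without the 4 libraries 1.32, 0.98 and 1.04. For STE2 it was 0.80, 0.56 and 0.60. BAR1 had the smallest of the called differences, 0.38, 0.26 and 0.36. AGA1 and AGA2 were not called, with values from -0.02 to 0.25. AGA2 in npl3-F162Y cells, at 0.25, was called with the replicate block, with the number series as a term, without the 4 libraries (0.27), and without replicate 1 of NPL3 or replicate 2 of the mutant at 37 °C. AGA1 in npl3-F245I cells was called without replicate 1 of NPL3 at 37 °C. MFA2 in npl3-P196D-A197D cells, at 0.51 and without the 4 libraries 0.49, lost its call without replicate 1 of NPL3 or of the mutant at 30 °C, replicate 2 of NPL3 at 37 °C, or replicate 1 or 3 of the mutant at 37 °C, and with only the compared groups fitted.

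The mutants also differed from one another. At 30 °C npl3-P196D-A197D against npl3-F162Y cells showed 4 genes higher, where 14.1% of features were, and 1 lower, against 11.1%, or 5 against 25.2% either way. npl3-F245I against npl3-F162Y cells showed 4 lower and none higher, against 16.9% and 16.8%, or 33.7% either way. For npl3-P196D-A197D against npl3-F245I cells 5 were higher and none lower, against 16.6% and 11.6%, or 28.2% either way. At 37 °C the same comparisons gave 2 lower and none higher against 8.93% and 10.4%, 5 lower and 1 higher against 19.7% and 18.5%, and 3 higher and 1 lower against 20.7% and 17%. Either way 19.3, 38.2 and 37.7% of features were called. None of these comparisons has an NPL3 group, but the NPL3 libraries enter the spread estimated over all 24 libraries. The comparisons at 30 °C use mutant libraries that entered the selection of the genes, so their p-values are not independent of it. The single lower gene of the last comparison, AGA1 (log2 -0.19, edgeR adjusted p = 0.0227), lost its call without the 4 libraries (0.0958), without replicate 1 of npl3-P196D-A197D (0.116) and without replicate 2 of npl3-F245I (0.0908). BAR1 in npl3-F245I against npl3-F162Y cells lost its call at 37 °C without the 4 libraries (edgeR adjusted p = 0.0644) and at 30 °C without replicate 1 of npl3-F245I (0.0600). STE2 in npl3-P196D-A197D against npl3-F245I cells at 30 °C (log2 0.12, edgeR adjusted p = 0.0225) lost its call without replicate 1 or 3 of the former or replicate 1 or 2 of the latter (0.0519 to 0.104).

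MFA1 separated npl3-F245I cells from the other mutants. It was lower than in npl3-F162Y cells by a log2 value of -0.61 at 30 °C (edgeR adjusted p = 0.000105) and -0.87 at 37 °C (edgeR adjusted p = 9.43e-07), and npl3-P196D-A197D cells exceeded npl3-F245I cells by 0.80 (6.49e-06) and 0.70 (1.63e-05). Without the 4 libraries the 37 °C values were -0.89 and 0.74. MFA1 was then also called lower in npl3-P196D-A197D than in npl3-F162Y cells at 37 °C (log2 -0.15, edgeR adjusted p = 0.0460), and MFA2 was called higher in npl3-P196D-A197D than in npl3-F245I cells at 37 °C (0.14, edgeR adjusted p = 0.0375). With all libraries neither was called, at -0.17 (edgeR adjusted p = 0.257) and 0.12 (edgeR adjusted p = 0.409). AGA2 was higher in npl3-P196D-A197D than in npl3-F245I cells by 0.46 at 30 °C (edgeR adjusted p = 1.15e-05) and by 0.44 at 37 °C (edgeR adjusted p = 1.23e-05), and lower in npl3-F245I than in npl3-F162Y cells by -0.44 at 37 °C (edgeR adjusted p = 1.36e-05). These 37 °C values of AGA2 were 0.48 and -0.50 without the 4 libraries. FUS1 was lower in npl3-P196D-A197D than in npl3-F162Y cells at both temperatures, by -0.27 (edgeR adjusted p = 0.00067) and -0.35 (edgeR adjusted p = 8.34e-05). STE6 and FUS1 were the genes lower in npl3-P196D-A197D than in npl3-F162Y cells at 37 °C, and STE6 (log2 -0.13, edgeR adjusted p = 0.0244) lost its call with only the compared groups fitted (0.0558), without the 4 libraries (0.0573), and without replicate 2 (0.0843) or 3 (0.0604) of npl3-F162Y or replicate 1 of the other strain (0.108). At 30 °C the MFA2 difference between npl3-P196D-A197D and npl3-F162Y cells (log2 0.29, edgeR adjusted p = 0.0418) was lost whichever of the 6 libraries was left out (0.0636 to 0.113). That of AGA2 (0.20, edgeR adjusted p = 0.0255) was lost without replicate 1 (0.0787) or 2 (0.0756) of npl3-F162Y and without replicate 2 (0.0706) or 3 (0.102) of the other strain, and that of STE2 (0.14, edgeR adjusted p = 0.00899) without replicate 3 of npl3-F162Y (0.0503). Without the 4 libraries, all at 37 °C, these 30 °C differences were 0.29 for MFA2, 0.20 for AGA2 and 0.14 for STE2. Their edgeR adjusted p were then 2.77e-05, 0.000621 and 0.0104.

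Markers of α cells were set beside these genes, and no verdict on the labelled mating type is drawn from them. Of MFALPHA1, MFALPHA2, STE3 and SAG1, 3 were higher in each mutant than in NPL3 cells at 30 °C, where 29.8, 24.1 and 24.5% of features were, and MFALPHA2 was lower in npl3-F162Y cells. At 37 °C 3, 3 and 2 of the 4 were higher, where 28, 21.3 and 24% of features were, and none was lower. The summed level of the 4 was 67.4 to 72.3 CPM in NPL3 cells and 92.2 to 127 CPM in the mutants at 30 °C, and 71.2 to 71.3 and 92.3 to 115 CPM at 37 °C. MFALPHA1 lay between 1.23 and 5.69 CPM, and the rows of MATALPHA1, MATALPHA2, HMLALPHA1 and HMLALPHA2 held 0 counts in all 24 libraries. For each of these rows the reference holds other copies of at least 95% identity over 100 bases. SAG1, the α-agglutinin gene, carried most of the sum. The part of these levels in the results was not tested.

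Other genes of the mating pathway were counted from lists written by hand. Of 6 genes of a-factor maturation, which farnesylate and trim the precursor, 5 were lower at 30 °C in npl3-F162Y, 4 in npl3-P196D-A197D and 5 in npl3-F245I cells, where 38.6, 31.7 and 33.3% of features were, with RCE1 the largest at log2 values of -0.67, -0.47 and -0.52. Of 16 genes of pheromone signalling 8, 6 and 7 were lower, where 38.6, 31.7 and 33.3% of features were. Called higher were 3, 1 and 3, where 29.8, 24.1 and 24.5% of features were. The list medians were log2 -0.09, -0.08 and -0.12, against -0.04 over all features in each comparison. FAR1, which arrests the cell cycle, SST2, which turns off the G protein, and GPA1, its α subunit, were the lowest at -0.92, -0.62 and -0.60 in npl3-F162Y cells. With the shift 9 of the 16 fell in NPL3 cells, where 32.9% of features did, and FAR1 fell by 1.59 on the log2 scale. Of 12 pheromone-induced genes 7, 6 and 7 were higher at 30 °C in the mutants, against 29.8, 24.1 and 24.5% of features, and 1, 1 and 2 lower. PRM6 was the highest of them, at log2 values of 2.08, 2.05 and 2.07, from 0.193 CPM in NPL3 cells. At 37 °C 7, 7 and 6 of the 12 were higher, against 28, 21.3 and 24% of features, and 0, 0 and 1 lower. Of 10 tested mating-type and silencing genes 3 were higher in each mutant at 30 °C, against 29.8, 24.1 and 24.5% of features. Lower were 4, 4 and 5, against 38.6, 31.7 and 33.3%.

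Levels of the 8 genes followed each other to different degrees over the 24 libraries, which share strains and temperatures. Pearson r of log2 CPM was highest between STE2 and BAR1, at 0.965, and lowest between MFA1 and AGA1, at 0.536, and MFA1 and MFA2 had 0.645. Among 5319 other mRNA features of at least 10 CPM, the pattern most like that of STE2 was that of SST2 (r = 0.986), and CIN2 followed (0.980). POB3 and PAA1 were closest to MFA1 (0.851 and 0.841), APM4 and RPL28 to MFA2 (0.978 each), ADH6 and RPL10 to BAR1 (0.987 and 0.986), and NIS1 and ATO3 to STE6 (0.962 each). TYS1 and TOS1 were closest to AGA1 (0.985 each), PRE3 and HXT1 to AGA2 (0.970 and 0.963), and ATO3 and PBR1 to FUS1 (0.907 and 0.906).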

How the data were processed

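Total RNA was prepared with Trizol and libraries with an Illumina stranded mRNA kit, per the labels' protocols. Per the submitters' processing notes, FastQC, STAR 2.7.2a and HTSeq were used with build R64, and the authors deposited whole-number counts per feature. Whether counting used strand is not stated in these sources. The 5 summary entries that name no gene were removed, and reads in no feature were 4.39 to 6.51% per library. In R 4.3.3, edgeR 4.0.16 filtered features by group and scaled libraries by TMM factors. It fitted 1 mean per group over all 24 libraries, with 16 residual degrees of freedom and a common biological coefficient of variation of 5.26%. The quasi-likelihood F-test was adjusted by Benjamini-Hochberg over 6518 features and called at 0.05, two-sided. The exact binomial intervals of the MFA1 share cover counting error only. An exact permutation test of 3 against 3 libraries cannot give a two-sided p below 0.1.

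No libraries of a group agreed within sampling noise, since chi-square per gene was 2.77 to 58.0. Genes, lists and tests were chosen with earlier results of these data known. All 8 members are named, with every α-cell gene, up to 3 genes a list and 2 genes most like each member. Alternatives were RLE size factors, no count filter, DESeq2 1.42.0, only the compared groups, a replicate block, the title number series as a term or left out, and each library left out. Same-numbered libraries deviated together, with every r above 0.1, in 5 of 6 comparisons between strains at 37 °C, and in none at 30 °C or between temperatures. Motifs and copies were searched in R64 with Python 3.11.15, Biopython 1.88 and blastn 2.17.0.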

Additional observations from a re-analysis of the deposited data

Results flagged for a closer look

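The response to the shift differed between each mutant and NPL3 by the interaction test of edgeR for 6 genes, which is why these values stand here. The test contains the 30 °C difference with which the genes were proposed, so it is not independent of their choice. In npl3-F162Y cells the difference of the log2 changes, mutant minus NPL3, was 1.36 for MFA1, 0.70 for MFA2, 0.80 for STE2, 0.47 for STE6, 0.38 for BAR1 and 0.65 for FUS1. In npl3-P196D-A197D cells it was 1.00 for MFA1, 0.51 for MFA2, 0.56 for STE2, 0.30 for STE6, 0.26 for BAR1 and 0.57 for FUS1. In npl3-F245I cells it was 1.10 for MFA1, 0.62 for MFA2, 0.60 for STE2, 0.55 for STE6, 0.36 for BAR1 and 0.56 for FUS1. Without the 4 libraries numbered apart the MFA2 differences were 0.65, 0.49 and 0.58 in the same order of mutants.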

How the results depend on the processing

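Of 2120 values of single genes under alternatives, 2003 kept their call and direction, 48 lost their call, 43 gained one and 26 changed sign. All 26 were differences not called in the reported fit. Over all features, other scalings moved the median by less than 0.1 on the log2 scale. With only the compared groups in the fit, the genes called numbered 1 rather than 3 for npl3-P196D-A197D and 3 rather than 7 for npl3-F245I against NPL3 at 37 °C, and 1 rather than 2 for npl3-P196D-A197D against npl3-F162Y at 37 °C. Leaving out each library gave 3 to 4 genes for npl3-P196D-A197D against npl3-F162Y at 30 °C and 1 to 2 at 37 °C. The cause was not tested.

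Over all features, fitting only the compared groups called 1425 rather than 2850 for npl3-P196D-A197D against NPL3 at 37 °C, 309 rather than 694 for its shift interaction, 2571 rather than 1642 and 2792 rather than 1839 for it against npl3-F162Y and npl3-F245I at 30 °C, and 3339 rather than 2199 for npl3-F245I against npl3-F162Y at 30 °C. The interaction of npl3-P196D-A197D gave 1047 with the number series as a term and 1275 without replicate 1 of NPL3 at 37 °C.

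The log2 values that changed sign were these. Leaving out each library, the npl3-P196D-A197D difference from NPL3 at 37 °C ran from -0.056 to 0.017 for STE2 and from -0.12 to 0.046 for AGA1, and the npl3-F245I one from -0.0027 to 0.22 for MFA1. The interaction ran from -0.13 to 0.064 for AGA1 in npl3-F162Y. Of npl3-P196D-A197D it ran from -0.099 to 0.090 for AGA1 and -0.0086 to 0.12 for AGA2. For npl3-P196D-A197D against npl3-F162Y, AGA1 at 30 °C ran from -0.0026 to 0.086 and AGA2 at 37 °C from -0.083 to 0.067. For npl3-F245I against npl3-F162Y at 37 °C, MFA2 ran from -0.089 to 0.073, and was 0.0013 with only the compared groups. AGA1 interactions were 0.0062 in npl3-F162Y without the 4 libraries, and -0.0105 with RLE size factors and -0.0104 with DESeq2 in npl3-P196D-A197D. AGA2 was -0.0194 without the 4 libraries for npl3-P196D-A197D against npl3-F162Y at 37 °C.

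The replicate block changed 3 calls: MFA1 with the shift in npl3-F162Y (log2 -0.19, edgeR adjusted p = 0.0424), AGA2 in the npl3-F162Y interaction (0.25, 0.0283) and MFA2 for npl3-P196D-A197D against npl3-F245I at 30 °C (0.23, 0.0328). It changed no other call, and none in the 6 comparisons between strains at 37 °C. In 5 of these all same-numbered libraries deviated together, and in npl3-P196D-A197D against NPL3 not all did (lowest r 0.011). Each 37 °C group holds a library of the other number series, so these r values cannot tell pairing from that series. Same-numbered libraries are known to share only a number, and 9 of 24 libraries correlated best with one of their own number. The 3 libraries a group, and short transcripts in which the number series differs, limit the small differences.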
